A study of Mus musculus with 23 samples.

Results

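The genes described here are those that isoproterenol (ISO) and lipopolysaccharide (LPS) moved differently in the mouse heart by day 1. They were found by a difference of differences, the ISO change (ISO day 1 minus ISO baseline) minus the LPS change (LPS day 1 minus LPS baseline), on the log2 scale. Of 15732 genes tested, 5923 (37.6%) had a called difference, that is, a Benjamini-Hochberg adjusted p under 0.05 in edgeR's quasi-likelihood test. The hearts came from female wild-type C57BL/6J mice, an inbred strain, aged 10 weeks. One arm received ISO at 300 mg/kg and the other LPS at 2.5 mg/kg, and each arm had its own untreated baseline. ISO day 1 held 3 hearts, and ISO baseline, LPS baseline and LPS day 1 held 4 each, so 15 of the 23 libraries enter the comparison. The day 7 libraries enter only the count filter, the scaling and the estimate of the spread. Controls received no treatment, so an effect of handling or injection cannot be told apart from that of the agent, and anything that differed between the arms other than the agent is removed only as far as each baseline carries it.

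ISO is a synthetic agonist of the beta-adrenergic receptors, which act through cyclic AMP and protein kinase A on the rate, force and metabolism of cardiomyocytes. At high doses it is a standard model of catecholamine injury to the heart. LPS, a cell wall component of Gram-negative bacteria, is sensed by Toll-like receptor 4, which signals through NF-kB to cytokines and chemokines and through the adaptor TRIF and IRF3 to type I interferon. Interferons raise the interferon-stimulated genes, the guanylate-binding proteins and immunity-related GTPases, and the machinery that presents peptides on MHC class I.

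Both agents moved a large share of the transcriptome at day 1. ISO changed 65.7% of tested genes (10332 genes) and LPS 66.2% (10410 genes), with nearly equal shares rising (32.9% and 33.2%) and falling (32.8% and 33%). Across genes the ISO and LPS changes had a Pearson correlation of 0.626 and a Spearman correlation of 0.649, given as a description over 15732 genes that share libraries and are not independent replicates. Of the 7800 genes called under both agents, 6943 moved in the same direction. The difference was above 0 (ISO change above LPS change) in 3061 genes (19.5%) and below 0 in 2862 (18.2%).

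The 5923 genes were sorted by what each agent did. Moved by ISO alone means that the ISO change was called and at least 2-fold while the LPS change was not called and its 95% interval lay within 1.5-fold either way, and LPS alone is the converse. By this rule 78 genes rose (0.496% of genes tested) and 73 fell (0.464%) under ISO alone, and 79 rose (0.502%) and 64 fell (0.407%) under LPS alone. Genes that the agents moved in opposite directions numbered 857 (5.45%), of which 418 (2.66%) rose with ISO and fell with LPS and 439 (2.79%) fell with ISO and rose with LPS. In 232 of the 857 both changes were at least 1.5-fold, 79 in the former order and 153 in the latter. A further 2169 genes moved in the same direction by different amounts. Of the remaining 2603, 1284 had only the ISO change called, 1260 only the LPS change and 59 neither. Where 1 change was called, it was under 2-fold, or the other change was not bounded within 1.5-fold, or both. A missing change was not shown for genes without that bound. Genes named by rank below were taken by the size of the difference (in opposite directions, by the smaller of the 2 changes) among protein-coding genes with a mean of at least 5 CPM, a gene's reads scaled to the size of its library, in their highest group. They also had no overlap between day 1 and baseline hearts in each arm that moved, which held for 66.7% of all tested genes in the ISO arm, 58.2% in the LPS arm and 44.8% in both (the ISO and LPS day 1 hearts did not overlap each other in 46.7%), so the lack of overlap there is part of the rule and not a result.

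**Figure D1:**
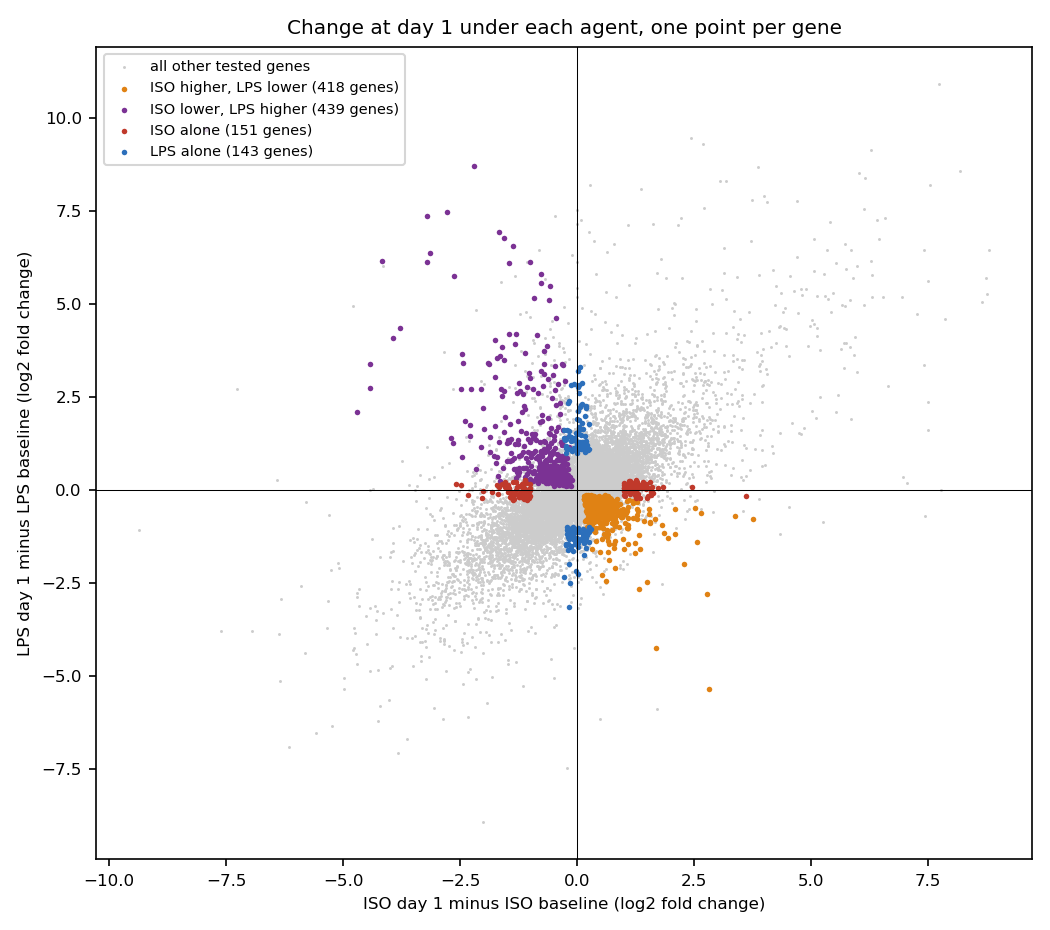
Log2 change at day 1 under ISO (x axis) against that under LPS (y axis), one point for each of 15732 tested genes. Coloured points mark genes moved by 1 agent alone (151 by ISO, 143 by LPS), which lie along the axes, and genes moved in opposite directions (418 and 439), which lie in the lower right and upper left.

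The libraries differed in ways that stand beside all results below. The 4 LPS day 1 hearts formed pairs, in that replicates 1 and 2 were closer to each other, as were 3 and 4, than any of them was to one of the other pair. With replicates 3 and 4 alone in that group 6136 differences were called and 884 genes were opposite, and with replicates 1 and 2 alone 6289 and 902. Library totals ran from 20910394 to 30368985 estimated reads over all 23 libraries. Mitochondrially encoded transcripts took 22.3 to 24.6% of reads at ISO day 1 against 25.7 to 28.3% at ISO baseline, and 25.4 to 28.8% at LPS day 1 against 27.7 to 29.3% at LPS baseline. The summed cardiomyocyte markers were at 49492 to 69026 CPM at ISO day 1, 42420 to 49754 at LPS day 1 and 66233 to 71495 and 71523 to 77642 at the LPS and ISO baselines. In RNA of whole hearts, fewer cells of a type and less RNA per cell cannot be told apart. CPM values below are scaled between libraries, changes and differences given without the word fold are log2, and p-values are adjusted over all 15732 genes and reflect how far mice of a group differ, library preparation included. Counts of list members below stand beside the shares over all genes tested. Differences were called above 0 in 19.5% and below 0 in 18.2%, and 5.45% of genes were opposite. ISO raised 32.9% and lowered 32.8%, and LPS raised 33.2% and lowered 33%.

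The genes that fell with ISO and rose with LPS were led by interferon-inducible GTPases and their companions. The first 4 by the smaller of their changes were Gm4841, Ifi206, Iigp1 and F830016B08Rik. Gm4841, Iigp1 and F830016B08Rik are neighbouring members of the immunity-related GTPase family, whose products attack the vacuoles of intracellular pathogens. Ifi206 belongs to the interferon-inducible p200 family of nuclear and DNA-sensing proteins. Promoters of Ifi206 (chr1:173468485.0-173491041.0) and of Cxcl9 (chr5:92321347.0-92328079.0), the 2 highest members by that order with an entry that could be shown, follow in lower case, 5′ to 3′ on the strand of the gene, with motif matches in capitals. They are 300 bases long, from 250 before to 50 after the RefSeq start (GRCm38.p6, the assembly of mm10), and are shown because these genes moved in opposite directions. Ifi206 lies on the minus strand with the window at chr1:173491269-173491568, and Cxcl9 on the minus strand with the window at chr5:92328030-92328329.
Ifi206: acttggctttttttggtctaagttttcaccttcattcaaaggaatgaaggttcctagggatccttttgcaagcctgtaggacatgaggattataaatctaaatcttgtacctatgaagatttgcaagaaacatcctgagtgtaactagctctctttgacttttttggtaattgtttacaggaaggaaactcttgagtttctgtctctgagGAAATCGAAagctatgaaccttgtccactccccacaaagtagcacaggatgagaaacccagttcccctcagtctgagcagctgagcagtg
Cxcl9: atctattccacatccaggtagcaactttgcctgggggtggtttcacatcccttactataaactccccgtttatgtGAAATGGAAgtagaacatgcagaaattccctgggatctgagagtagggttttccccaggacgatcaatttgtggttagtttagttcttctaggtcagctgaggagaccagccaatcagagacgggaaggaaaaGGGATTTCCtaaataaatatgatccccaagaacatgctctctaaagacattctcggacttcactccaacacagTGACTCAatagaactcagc
The capitals in Ifi206 and the first in Cxcl9 mark the core of the interferon-stimulated response element (GAAANNGAA), at base 211 and base 76 of the window. The second run of capitals in Cxcl9, at base 209, is an NF-kB core (GGGANTTCC), and the third, at base 282, is an AP-1 site (TGAGTCA) on the other strand. The response element core, searched on both strands, was in 8.56% of all 32851 RefSeq promoters of this length and in 7.38% of the 14216 belonging to tested genes. Among genes that fell with ISO and rose with LPS it was in 18.3% of promoters (78 of 426). Within that group it was in 59.5% (25 of 42) of promoters of members of the interferon, GTPase and MHC class I lists and in 13.8% (53 of 384) of the others. Among genes raised by LPS alone the share was 18.3% (15 of 82) and among those raised by ISO alone 1.35% (1 of 74). Some genes have more than 1 promoter in the table, and a match is a run of letters and not a measured binding site. The other motifs searched, also on both strands, were the gamma-activated site (TTCNNNGAA), and for the sections on ISO the cyclic AMP response element (TGACGTCA) and its short form (TGACG), which the full element contains. The gamma-activated site was in 6.88% of promoters of tested genes, in 10.6% of those of genes that fell with ISO and rose with LPS (45 of 426) and in 31% (13 of 42) of those in the 3 lists. The NF-kB core was in 2.16% of promoters of tested genes and in 2.82% (12 of 426) of this group, and the AP-1 site in 3.88% and 5.63% (24 of 426).

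Iigp1 was at 33.4, 23.8, 32.3 and 28.2 CPM in the ISO baseline hearts and at 3.62, 3.1 and 2.83 CPM on ISO day 1. In the LPS arm it was at 20.3, 27.9, 24.6 and 25.3 CPM at baseline and at 2005, 1949, 1318 and 1621 CPM on day 1. Every ISO day 1 heart lay below every baseline heart of its arm and every LPS day 1 heart far above. Iigp1 fell by 9.25-fold with ISO (log2 change -3.21, SE 0.23, adjusted p = 5.17e-11) and rose 70.2-fold with LPS (6.13, SE 0.20, adjusted p = 8e-17). Its difference was -9.34 (95% interval -9.98 to -8.71, adjusted p = 3.26e-16).

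F830016B08Rik was at 8.23, 8.73, 6.7 and 9.15 CPM at ISO baseline and at 1.38, 0.477 and 0.875 CPM on ISO day 1. Its LPS baseline hearts were at 5.21, 8.03, 6.16 and 13.9 CPM and its LPS day 1 hearts at 1449, 1059, 1640 and 1407 CPM. Day 1 and baseline overlapped in neither arm, and the untreated hearts of the arms overlapped each other. The F830016B08Rik changes were -3.21 (SE 0.43) with ISO and 7.38 (SE 0.31) with LPS, and its difference was -10.59 (adjusted p = 9.45e-14). Gm4841 was at 3.45, 0.485, 0.296 and 0.266 CPM at ISO baseline, and all 3 ISO day 1 hearts had 0 reads. At LPS baseline it was at 0.217, 1.22, 0.434 and 2.29 CPM and on LPS day 1 at 1172, 1027, 647 and 628 CPM. One ISO baseline heart, replicate 1, stood well above the other 3. Against a floor of 3 reads over the ISO day 1 group, Gm4841 was at least 29.8-fold lower than at ISO baseline (118 reads over that group). Replicate 1 held 93 of those reads, and without it the bound was 8.63-fold. The LPS change of Gm4841 was 9.72 (SE 0.52, adjusted p = 1.15e-12).

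Ifi206 was at 0.63, 0.388, 0.37 and 0.304 CPM at ISO baseline and 0.0863, 0 and 0 CPM on ISO day 1, where the group held 2 reads in all. The LPS arm went from 0.652, 0.229, 0.434 and 0.475 CPM to 13.9, 9.76, 7.04 and 6.53 CPM. In reads over the groups the ISO decrease was 16.3-fold with a 95% counting interval of 4.25 to 139, which covers counting error only. The Ifi206 difference was -8.15 (SE 0.94, adjusted p = 4.01e-07). The next 4 genes by the same measure were Ccl5 and Cxcl9, chemokines that draw T cells and natural killer cells, Psmb9, a subunit of the immunoproteasome, and Tgtp1, another immunity-related GTPase. Cxcl9 went from a mean of 3.55 to 0.566 CPM with ISO and from 4.49 to 243 CPM with LPS, a difference of -8.40 (adjusted p = 2.42e-13). Ccl5 went from 0.385 to 0.0535 CPM and from 0.152 to 28.2 CPM (difference -10.25, adjusted p = 1.11e-09). Psmb9 had changes of -2.48 and 2.73, and Tgtp1 of -2.46 and 3.65. The GTPase genes and the MHC class I genes have near-identical copies, so reads estimated for one member can belong to another.

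The interferon lists moved as groups in the same pattern. Of 35 tested interferon-stimulated genes, 22 fell and 0 rose with ISO, and 34 rose and 0 fell with LPS (32.8% of all genes fell with ISO and 33.2% rose with LPS). All 35 had a called difference below 0 (18.2% of all genes did), and 21 were called in opposite directions (5.45% of all genes). The median change was -0.62 with ISO and 3.37 with LPS, where the medians over all genes tested were -0.01 and 0. Irf7, the factor that amplifies type I interferon, had changes of -0.58 and 5.49, and Ifit1, an antiviral protein that binds foreign RNA, of -1.0 and 6.13. Ifit3b had a fall of 2.96-fold with ISO and a rise of 109.8-fold with LPS, Xaf1, an interferon-inducible regulator of apoptosis, changes of -0.86 and 4.17, and Eif2ak2, the double-stranded RNA kinase PKR, changes of -0.62 and 2.99. Isg15, a ubiquitin-like modifier, rose with LPS (4.93, adjusted p = 1.78e-15) and had an ISO change of -0.29 that was not called (adjusted p = 0.348).

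Of the 20 guanylate-binding proteins and immunity-related GTPases, all 20 rose with LPS, 16 fell with ISO and 1, Gbp10, rose with both agents. The list had a median change of -1.63 with ISO and 4.11 with LPS, and the ISO median was -1.54 when the 3 members with a group at 0 reads were set to their bound. Irgm2 had changes of -1.46 and 4.19, Irgm1 of -0.77 and 5.82, and Gbp7 of -1.71 and 3.55. Gbp2 went from 12.2 to 6.53 CPM with ISO and from 13.1 to 474 CPM with LPS. For MHC class I presentation, all 20 tested genes rose with LPS and 13 fell with ISO. Those that fell with ISO included H2-T23 (-1.25 and 2.88), the immunoproteasome subunits Psmb8 (-0.70 and 3.40) and Psmb10 (-0.26 and 2.94), the loading factor Tapbp (-0.53 and 2.48) and Nlrc5, the transactivator of class I genes (-1.57 and 3.505). A further 6 were raised by LPS alone, and H2-Q6 was in neither group. H2-K1, a classical class I heavy chain, was among these 6, with 104 and 105 CPM in the ISO arm and 106 and 464 CPM in the LPS arm (difference -2.11, adjusted p = 8.14e-09).

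**Figure D2:**
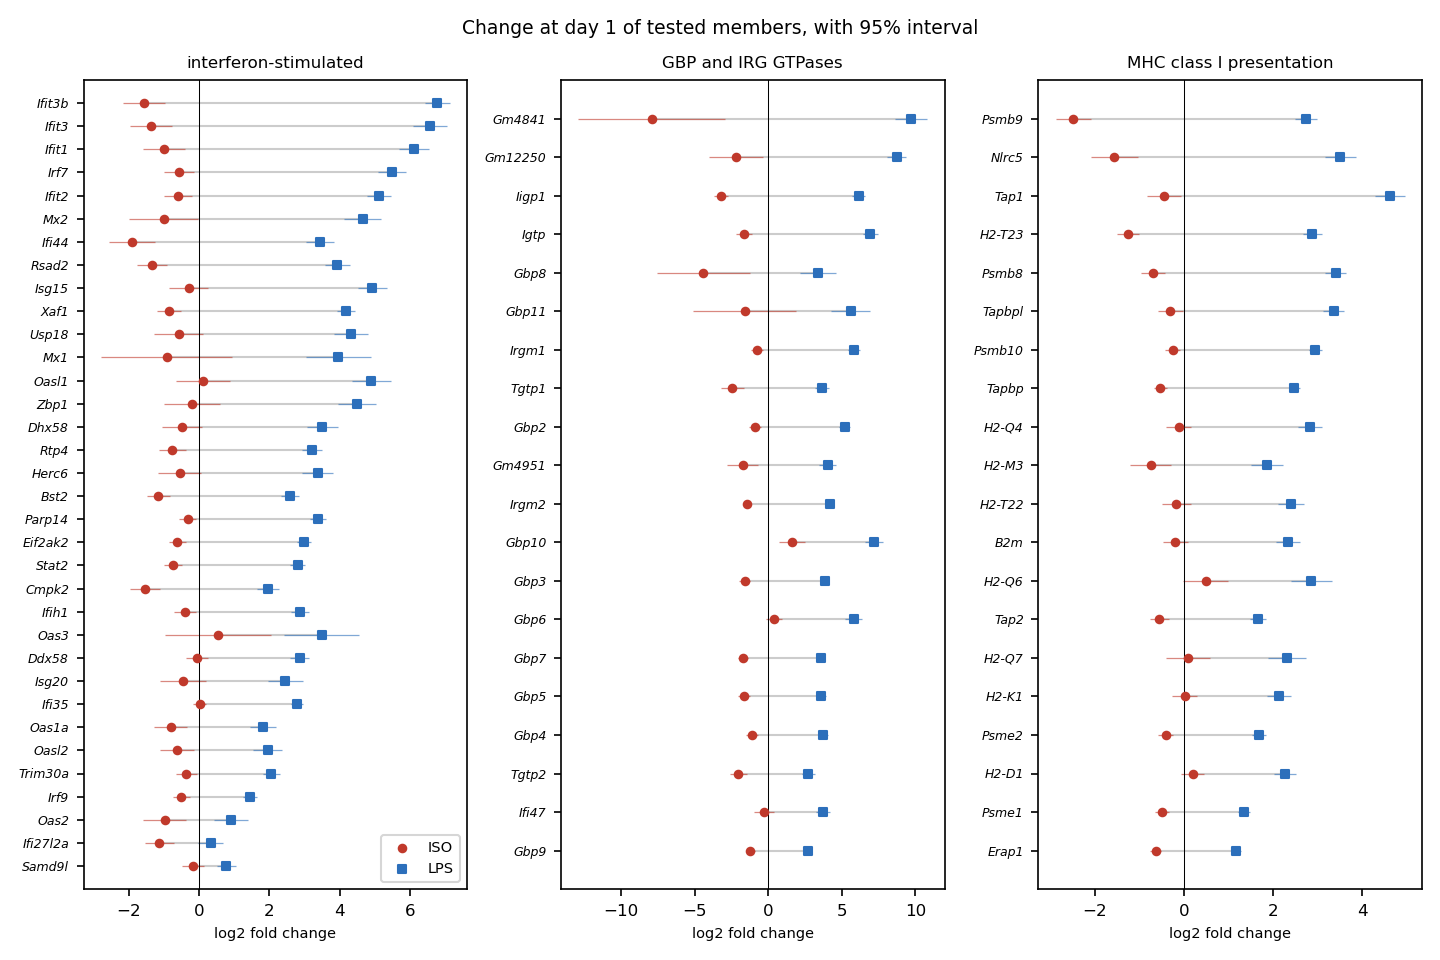
Log2 change at day 1 with ISO (circles) and with LPS (squares) for tested members of 3 lists, with 95% intervals, ordered by the difference. LPS values lie to the right of ISO values for all members shown, and most ISO values lie left of 0. Gm4841 had 0 reads at ISO day 1, so its ISO point is a fitted value and not a bound.

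MHC class II presentation fell with both agents. Of 9 tested genes all 9 fell with ISO and 8 fell with LPS, and 5 had a called difference, all with the lower value under ISO. H2-Ab1, a class II chain, went from 29.9 to 4.33 CPM with ISO and from 29.9 to 13.3 CPM with LPS. Cd74, the invariant chain, had changes of -2.15 and -1.04. Ciita, the class II transactivator, fell with ISO (-2.58, adjusted p = 4.7e-06) and had an LPS change of -0.25 that was not called (adjusted p = 0.429).

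Marker sums of immune cells also differed between the groups, and their part in the lists above was not tested. Summed T cell and natural killer markers were at 6.79 to 7.46 CPM on ISO day 1 and 7.15 to 8.26 CPM on LPS day 1, against baselines of 9.89 to 13.1 and 10.8 to 14 CPM. Thy1, a surface antigen of T cells that fibroblasts also carry, made up most of these sums in all groups but LPS day 1. It was at 5.31 to 6.25 CPM on ISO day 1 and 2.29 to 3.64 CPM on LPS day 1, against 7.67 to 9.68 and 8.87 to 12.1 CPM at the baselines. The other markers of the list summed to 0.958 to 1.53 CPM on ISO day 1 and 3.9 to 5.47 CPM on LPS day 1, below the baseline of 1.6 to 3.45 CPM in the former arm and above that of 1.91 to 2.57 CPM in the latter. Of the 13 tested markers none rose and 7 fell with ISO, 7 rose and 2 fell with LPS, and 3, Gzma, Gzmb (both granzymes) and Il2rb (an interleukin 2 receptor chain), were opposite. Their median change was -1.99 with ISO and 1.40 with LPS, and the ISO median was -0.94 with the 3 markers that had a group at 0 reads set to their bound. Il2rb had changes of -0.94 and 1.40. Its ISO hearts overlapped, at 0.25 to 0.302 CPM on day 1 and 0.296 to 0.797 CPM at baseline. The granzyme falls with ISO rest on few reads. At ISO baseline Gzma was at 0.038 to 0.222 CPM and Gzmb at 0 to 0.111 CPM. Both were at 0 CPM in every ISO day 1 heart. On ISO day 1 and LPS day 1, summed B cell markers were at 1.17 to 1.94 and 1.74 to 2.94 CPM. At the ISO and LPS baselines they were at 6.88 to 9.9 and 6.08 to 8.98 CPM. In the same order, general leukocyte and macrophage markers were at 139 to 149.7, 101 to 135, 161 to 187 and 151 to 175 CPM. In the last list Lyz2, lysozyme of myeloid cells, fell under both agents (-1.04 and -2.64), and without it the day 1 sums of 106 to 118 CPM with ISO and 92 to 124 CPM with LPS overlapped the baselines of 99.2 to 116 and 90.2 to 109 CPM. None of the tested markers in these lists was at 0 reads in all 15 libraries.

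Outside the interferon lists, genes that fell with ISO and rose with LPS included regulators of metabolism, muscle protein turnover and complement. Nampt, the rate-limiting enzyme of NAD salvage, had a mean of 153 ± 17 CPM at ISO baseline (SD, n = 4) and 51.6 ± 2.37 CPM on ISO day 1 (SD, n = 3), and of 165 ± 11.8 and 488 ± 53.7 CPM in the same order with LPS (SD, n = 4 each). Its changes were -1.56 (SE 0.12) and 1.56 (SE 0.11), and its difference was -3.13 (adjusted p = 8.55e-13). Of 16 genes of NAD metabolism, 4 moved in opposite directions (5.45% of all genes did). Among them were the interferon-inducible ADP-ribosyltransferases Parp14 (-0.32 and 3.39) and Parp9 (-0.64 and 3.88). Fbxo32 (atrogin-1) and Trim63 (MuRF1), the ubiquitin ligases of muscle atrophy, were also opposite. Fbxo32 went from 151 to 86.9 CPM with ISO and from 138 to 335 CPM with LPS (difference -2.08, adjusted p = 1.42e-09). Trim63 had changes of -0.41 and 0.95. In the list of 12 ubiquitin ligases and atrophy genes, 8 fell and 3 rose with ISO and 3 fell and 5 rose with LPS. With LPS day 1 replicates 1 and 2 alone, 5 fell and 4 rose with LPS. Among 17 complement genes, C1ra and C1s1, proteases of the classical pathway, had changes of -0.94 and 2.72 and of -1.21 and 1.59. Cfb, factor B of the alternative pathway, rose with LPS (6.94, adjusted p = 1.46e-15) and had an ISO change of 0.25 that was not called (adjusted p = 0.668). Over the complement list, 3 differences were called above 0 and 7 below (19.5% and 18.2% of all genes). Chemokines split both ways: of 22, 11 rose and 3 fell with ISO, 17 rose and 4 fell with LPS, and 5 were opposite, with Ccl5 and Cxcl9 lower with ISO and Ccl6, Ccl9 and Cxcl12 higher.

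The converse group, raised by ISO and lowered by LPS, was led by Ccl6, Mall, Hsph1 and Peg3. Ccl6, a chemokine of myeloid cells, was at 5.04, 4.95, 4.96 and 4.74 CPM at ISO baseline and at 37.7, 33.9 and 28.8 CPM on ISO day 1. With LPS it went from 3.51, 4.17, 4.78 and 4.94 CPM to 0.781, 1.05, 0.414 and 0.342 CPM. The untreated hearts of the arms overlapped, and the treated groups lay entirely outside them, on opposite sides. Ccl6 rose 6.8-fold with ISO (log2 change 2.76, SE 0.19, adjusted p = 2.49e-11) and fell by 6.93-fold with LPS (-2.79, SE 0.27, adjusted p = 4.41e-09). Hsph1, a co-chaperone of the HSP70 system, was at 33.8, 36.4, 33.1 and 38 CPM at ISO baseline and 177, 112 and 94.3 CPM on ISO day 1, and at 36.7, 35.1, 43 and 40.9 CPM at LPS baseline and 18.9, 17.6, 16.9 and 16.4 CPM on LPS day 1. Among the ISO day 1 hearts replicate 1 was the highest, and all 3 stood above all untreated hearts. The Hsph1 difference was 3.01 (95% interval 2.61 to 3.41, adjusted p = 3.46e-11).

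Mall, a membrane protein of lipid rafts, was at 3.89, 4.12, 4.45 and 5.09 CPM at ISO baseline and 9.57, 11.8 and 9.7 CPM on day 1, and at 3.69, 4.51, 4.19 and 4.11 CPM at LPS baseline and 1.08, 1.74, 1.86 and 1.54 CPM on day 1. The treated groups lay on opposite sides of the untreated hearts, and the difference was 2.65 (SE 0.25, adjusted p = 2.53e-08). Peg3, a paternally expressed imprinted zinc-finger gene, was at 8.01, 10.5, 8.37 and 10.2 CPM at ISO baseline and 16.5, 15.8 and 26.9 CPM on day 1, and at 8, 7.38, 10.0 and 9.77 CPM at LPS baseline and 1.86, 1.64, 4.22 and 4.79 CPM on day 1. LPS day 1 replicates 1 and 2 were lower than replicates 3 and 4, and all 4 were below their baseline. Its difference was 2.55 (SE 0.35, adjusted p = 5.43e-06). The next 4 were Hccs, which attaches haem to cytochrome c (0.99 with ISO and -1.31 with LPS), Dnaja4, another co-chaperone (1.02 and -0.90), Fam198b (0.89 and -1.005) and Slc8a1, the cardiac sodium-calcium exchanger NCX1 (0.82 and -0.87). In the annotation 44.1% of the Dnaja4 exon bases also belong to Wdr61 and 25.9% of those of Hccs to Arhgap6, both on the other strand, so without a stated strand setting those reads cannot be told apart.

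Chaperones as a list leaned the same way. Of 18 heat shock genes, 15 rose and 1 fell with ISO, 8 rose and 6 fell with LPS, and 12 had a called difference above 0 (19.5% of all genes did). Opposite changes were called in 5: Hsph1, Hspa4, Hspe1, Hspb8 and Hspd1. Hspa4, a relative of Hsph1, had changes of 0.64 and -0.26, and Hspe1, the mitochondrial chaperonin subunit HSP10, of 0.81 and -0.37. Hspa1a, the inducible HSP70, had a mean of 5.83 ± 1.24 CPM at ISO baseline (SD, n = 4) and 75.1 ± 39.3 CPM on ISO day 1 (SD, n = 3), and of 6.33 ± 3.04 and 9.19 ± 1.53 CPM in the same order with LPS (SD, n = 4 each). Its difference was 3.14 (adjusted p = 4.39e-06), with the caution that Hspa1b is a near-identical copy. Cryab, the small heat shock protein alpha-B crystallin, rose under both agents and more with ISO (2.06 and 0.51), as did Hspb1 (3.14 and 1.70). In the unfolded protein and integrated stress list, 13 of 22 differences were called above 0 and none below. Dnajb9 and Manf, which serve the endoplasmic reticulum, rose with ISO alone (ISO changes 1.23 and 1.26, LPS changes 0.02 and -0.21), and Hspa5 (BiP), the main chaperone of that compartment, was opposite (0.81 and -0.49). For each of these genes LPS baseline replicate 3 was the highest of its group. It was at 33.6 CPM for Dnajb9, 37.6 for Manf and 597 for Hspa5. The other LPS baseline hearts were at 23.6 to 26.1, 18.1 to 23.6 and 358 to 418 CPM in that order.

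A few genes of the adrenergic and calcium machinery were moved in opposite directions. Of 27 genes for adrenergic receptors and cyclic AMP signalling, 8 differences were called above 0 and 3 below (19.5% and 18.2% of all genes). Opposite changes were called in 3 (5.45% of all genes): Prkar2a, Pde3a and Rgs2. Pde3a, the phosphodiesterase that is the target of milrinone, went from 118 to 148 CPM with ISO and from 116 to 55.2 CPM with LPS (difference 1.39, adjusted p = 3.25e-07). Rgs2, a brake on G protein signalling, had changes of 0.86 and -0.67, and Prkar2a, a regulatory subunit of protein kinase A, of 0.47 and -0.26. The receptor gene Adrb1 fell under both agents (-0.65 and -0.83) and its difference was not called (0.18, 95% interval -0.40 to 0.76), although with LPS day 1 replicates 3 and 4 alone it was (0.87). Among 17 calcium-handling genes, 10 fell and 3 rose with ISO and 14 fell and 2 rose with LPS. Differences were called above 0 in 5 and below in 3, and 3 genes were opposite (19.5%, 18.2% and 5.45% of all genes). Slc8a1 and Jph2 (junctophilin 2, which holds the dyad together) were among the opposite genes, with Jph2 at 0.37 and -0.79. None of 16 endothelial markers and 2 of 16 genes of endothelial activation and adhesion were opposite (5.45% of all genes). Those 2 were Thbd and Vwf: Thbd (thrombomodulin) had changes of 1.28 and -0.32 and Vwf (von Willebrand factor) of 0.32 and -0.94. Summed endothelial markers were at 2346 to 2435 CPM on ISO day 1 and 1718 to 2051 CPM on LPS day 1 against 1690 to 1786 and 1658 to 1778 CPM at the baselines, and their part in these 2 genes was not tested. Without Fabp4, a fatty acid carrier that rose with both agents, these sums were 1556 to 1666, 1270 to 1347, 1468 to 1531 and 1457 to 1566 CPM. Cxcl12, the CXCR4 ligand, had changes of 0.48 and -1.66.

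Resident macrophage markers were lower with LPS than with ISO. Of 15 tested markers, 9 fell and 3 rose with ISO and 14 fell and 1 rose with LPS, and 9 differences were called above 0 and 1 below. Their median change was -1.32 with ISO and -2.47 with LPS. Cd163, Clec10a and Mrc1, given next, are not among the 9 that fell with ISO. Cd163, the haemoglobin scavenger receptor, went from 14 to 24.5 CPM with ISO and from 13.3 to 3.12 CPM with LPS (difference 2.90, adjusted p = 1.58e-08). Clec10a, a lectin, was also opposite (1.32 and -1.21). Mrc1, the mannose receptor, fell with LPS (-2.47, adjusted p = 8.45e-10), and its ISO change of 0.40 was not called (adjusted p = 0.0713). The summed level of these markers was 223 to 239 CPM on ISO day 1, 147 to 160.3 CPM on LPS day 1 and 263 to 269.6 and 255 to 276 CPM at the ISO and LPS baselines. The ISO fall of this sum lay in Gas6, at 93.6 to 124 CPM on ISO day 1 against 140.6 to 148.1 CPM. Without Gas6 the ISO sums overlapped, at 106 to 129.6 CPM on day 1 and 118.5 to 127 CPM at baseline. The LPS sums without it were 38.6 to 47.6 CPM on day 1 against 106.4 to 129.2 CPM.

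**Figure D3:**
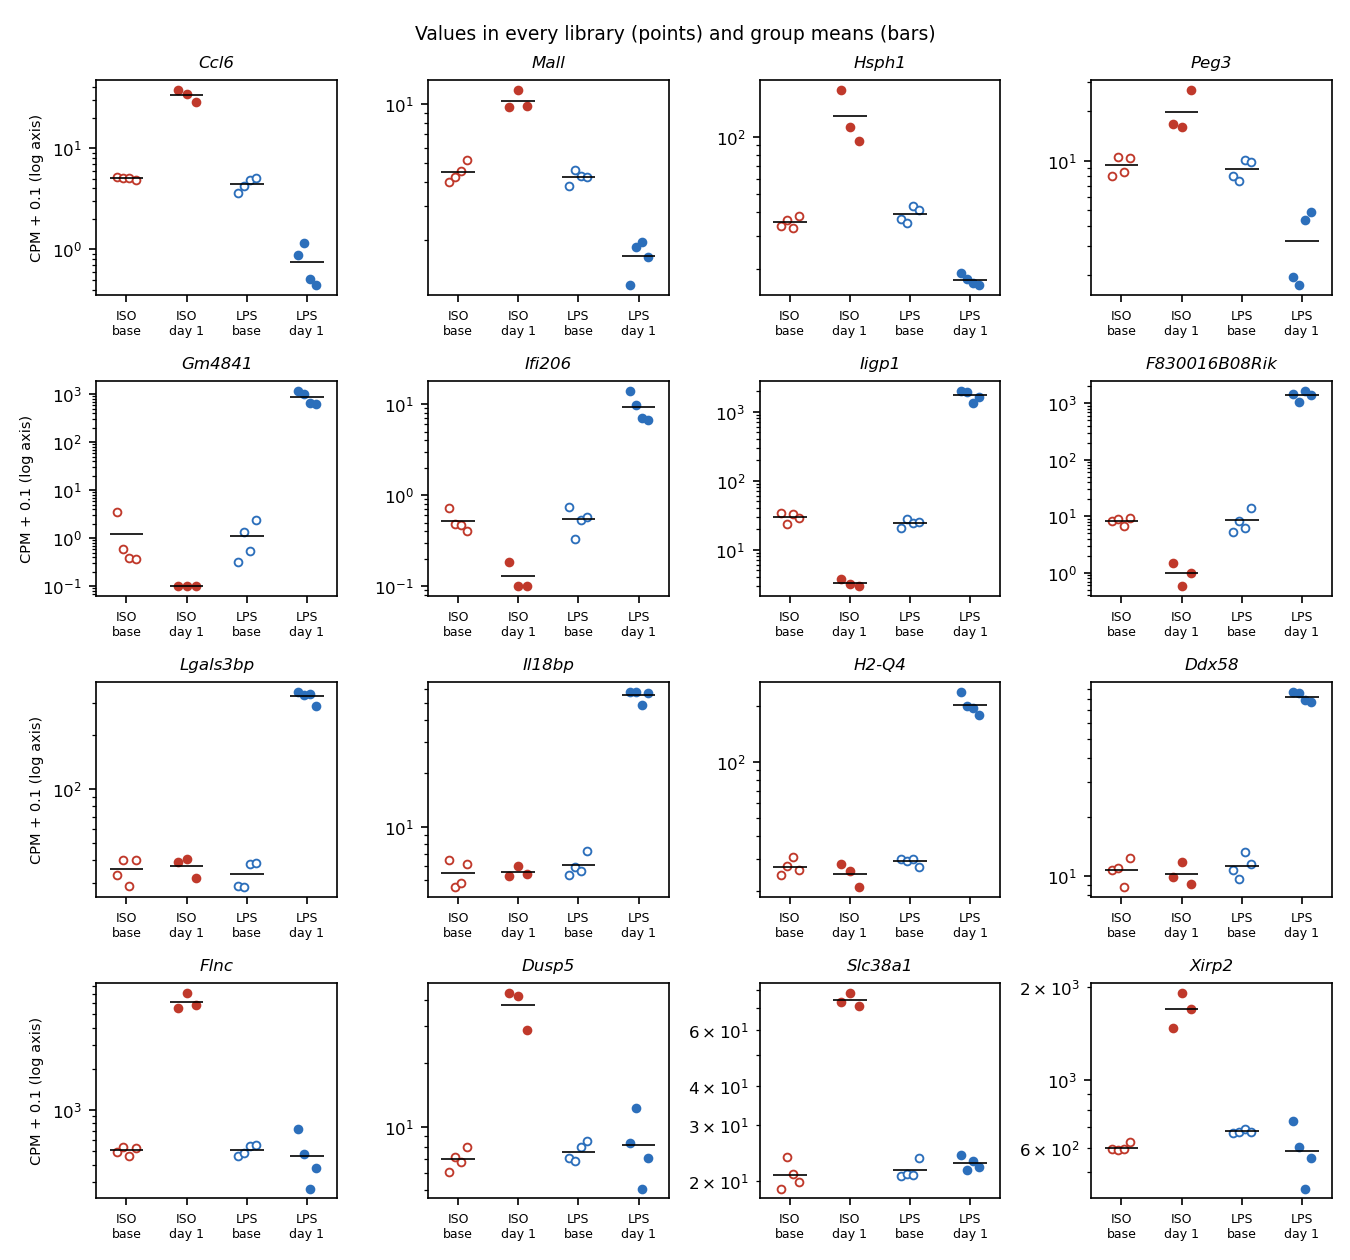
CPM plus 0.1 on log axes in every library of the 4 groups, with bars at group means, for 4 genes of each of 4 kinds from top to bottom: raised by ISO and lowered by LPS, lowered by ISO and raised by LPS, raised by LPS alone, and raised by ISO alone. Open points are untreated hearts and filled points day 1 hearts, and day 1 and baseline hearts do not overlap in the arms that moved.

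In order of the difference, the first 4 genes raised by ISO alone were Flnc, Dusp5, Slc38a1 and Xirp2. Flnc (chr6:29433256.0-29461883.0 in the mm10 annotation, plus strand) encodes filamin C, which crosslinks actin at the Z-disc. Dusp5 (chr19:53529109.0-53542431.0, plus strand) encodes a nuclear phosphatase of the kinase ERK. Their promoters are shown because these genes lead the group.
Flnc: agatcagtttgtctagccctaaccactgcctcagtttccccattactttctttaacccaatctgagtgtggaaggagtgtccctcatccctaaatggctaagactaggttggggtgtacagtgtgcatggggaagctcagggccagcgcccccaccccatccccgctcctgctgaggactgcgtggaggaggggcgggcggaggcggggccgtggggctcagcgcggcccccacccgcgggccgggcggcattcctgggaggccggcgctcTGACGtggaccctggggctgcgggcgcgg
Dusp5: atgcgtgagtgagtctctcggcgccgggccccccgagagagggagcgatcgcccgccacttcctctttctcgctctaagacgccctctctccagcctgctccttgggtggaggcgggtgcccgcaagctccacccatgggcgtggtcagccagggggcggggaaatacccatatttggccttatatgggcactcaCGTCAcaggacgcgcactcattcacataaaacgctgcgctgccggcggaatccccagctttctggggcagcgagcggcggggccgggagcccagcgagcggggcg
The windows are chr6:29432903-29433202 (plus strand, the first of 2 RefSeq promoters of Flnc) and chr19:53528895-53529194 (plus strand). Capitals mark the short form of the cyclic AMP response element (TGACG), at base 272 in Flnc and, on the other strand, at base 196 in Dusp5. This short form was in 20.8% of all promoters, in 29.3% of those of tested genes and in 40.5% (30 of 74) of those of genes raised by ISO alone. It was in 34.4% (21 of 61) for genes lowered by ISO alone, 31.7% (26 of 82) for those raised by LPS alone and 14.7% (11 of 75) for those lowered by LPS alone. For genes that rose with ISO and fell with LPS it was in 31.3% (132 of 422), and for the converse in 24.9% (106 of 426). The full element (TGACGTCA) was in 4.05% (3 of 74) of promoters of genes raised by ISO alone and in 2.82% of those of tested genes.

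Flnc was at 496, 541, 459 and 531 CPM at ISO baseline and at 5583, 7123 and 5845 CPM on ISO day 1. In the LPS arm its hearts were at 465, 489, 546 and 553 CPM at baseline and 724, 476, 268 and 375 CPM on day 1. The ISO groups lay far apart, while the LPS day 1 hearts straddled their baseline, with replicate 1 the highest. Flnc rose 12.2-fold with ISO (log2 change 3.61, SE 0.20, adjusted p = 5.61e-13), and its LPS change was -0.16 (95% interval -0.51 to 0.20, adjusted p = 0.437). Its difference was 3.77 (adjusted p = 1.06e-10). Dusp5 was at 5.97, 7.03, 6.7 and 7.93 CPM at ISO baseline and 43.1, 42 and 28.9 CPM on day 1, and at 6.95, 6.77, 7.86 and 8.42 CPM at LPS baseline and 8.22, 12.2, 4.97 and 6.98 CPM on day 1. Every ISO day 1 heart was above all the others, and its difference was 2.36 (SE 0.26, adjusted p = 1.8e-07). In the annotation 22.1% of the Dusp5 exon bases are shared with an antisense gene, AC137853.2.

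Slc38a1, a transporter of glutamine, was at 18.8, 23.7, 21 and 19.7 CPM at ISO baseline and 73.5, 78.2 and 71.4 CPM on day 1, and at 20.6, 20.9, 20.9 and 23.6 CPM at LPS baseline and 24, 21.6, 23.1 and 22 CPM on day 1. The LPS groups overlapped, and the interval of the LPS change was -0.08 to 0.24. Its difference was 1.76 (SE 0.11, adjusted p = 2.39e-11). Xirp2, an actin-binding protein of the intercalated disc, was at 596, 589.9, 595 and 625 CPM at ISO baseline and 1476, 1910 and 1696 CPM on day 1, and at 673, 677, 691 and 675 CPM at LPS baseline and 735, 607, 443 and 555 CPM on day 1. Of its LPS day 1 hearts 3 lay below the baseline and 1 above. The Xirp2 difference was 1.71 (SE 0.15, adjusted p = 5.59e-09). Its untreated hearts did not overlap between the arms, with LPS baseline the higher, so this difference includes that gap. The next 4, Cdr2, Plekho1, Gfod1 and Srgap1, had ISO changes of 1.58, 1.52, 1.72 and 1.58 and LPS changes of -0.13, -0.15, 0.05 and -0.05. For Plekho1 and Srgap1, as for Xirp2, every LPS baseline heart lay above every ISO baseline heart.

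Genes of cardiomyocyte stress and of the cytoskeleton leaned to ISO as lists. Of 20 stress and fetal-type genes, 17 rose and none fell with ISO, 9 rose and 1 fell with LPS, and 11 differences were called above 0 and 1 below. The median change was 1.91 with ISO and 0.52 with LPS. Nmrk2, a nicotinamide riboside kinase of muscle, went from 1.22, 2.57, 2.22 and 2.05 CPM to 213, 452 and 123 CPM with ISO. In the LPS arm Nmrk2 was at 2.03, 3.17, 1.7 and 1.86 CPM at baseline and 2.57, 4.08, 1.49 and 2.19 CPM on day 1, and these groups overlapped. Its difference was 6.84 (SE 0.77, adjusted p = 3.09e-07), but the interval of its LPS change, -0.97 to 1.38, was too wide for it to count as moved by ISO alone. Nppb, which encodes the natriuretic peptide BNP, had changes of 2.13 and 0.38 (difference 1.75, adjusted p = 0.00535). Not all members differed: Ankrd1, a stretch-responsive ankyrin repeat protein, rose under both agents by 3.46 and 3.32, and the interval of its difference was -0.63 to 0.92.

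In the list of 20 cytoskeletal and serum response factor genes, 18 rose and none fell with ISO, 12 rose and 3 fell with LPS, and 14 differences were called above 0 and none below. Srf itself, the transcription factor of actin and early genes, had a mean of 114 ± 7.25 CPM at ISO baseline (SD, n = 4) and 243 ± 3.22 CPM on ISO day 1 (SD, n = 3), and of 123 ± 3.6 and 90.5 ± 11.4 CPM in the same order with LPS (SD, n = 4 each). Its changes were opposite (1.09, SE 0.08, and -0.44, SE 0.07), with a difference of 1.53 (adjusted p = 1.76e-10). Tubb6, a beta-tubulin, had changes of 2.86 and 0.52, Actg1, a cytoplasmic actin, of 1.497 and 0.48, and Vcl, vinculin, of 0.94 and 0.07, the last LPS value not being called (adjusted p = 0.289). Among 25 immediate early genes, 22 rose with ISO and 14 with LPS, and 10 differences were called above 0 and 1 below. That 10 became 16 with LPS day 1 replicates 3 and 4 alone or with the baselines pooled. Nr4a3, an orphan nuclear receptor induced by cyclic AMP, rose 13.5-fold with ISO and fell by 1.71-fold with LPS (difference 4.52, adjusted p = 8.94e-09). Its LPS hearts overlapped, at 2.93, 1.83, 3.87 and 6.01 CPM at baseline and 2.27, 3.14, 1.7 and 1.61 CPM on day 1. Dusp2 was the exception, with the larger rise under LPS (1.24 and 3.96).

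**Figure D4:**
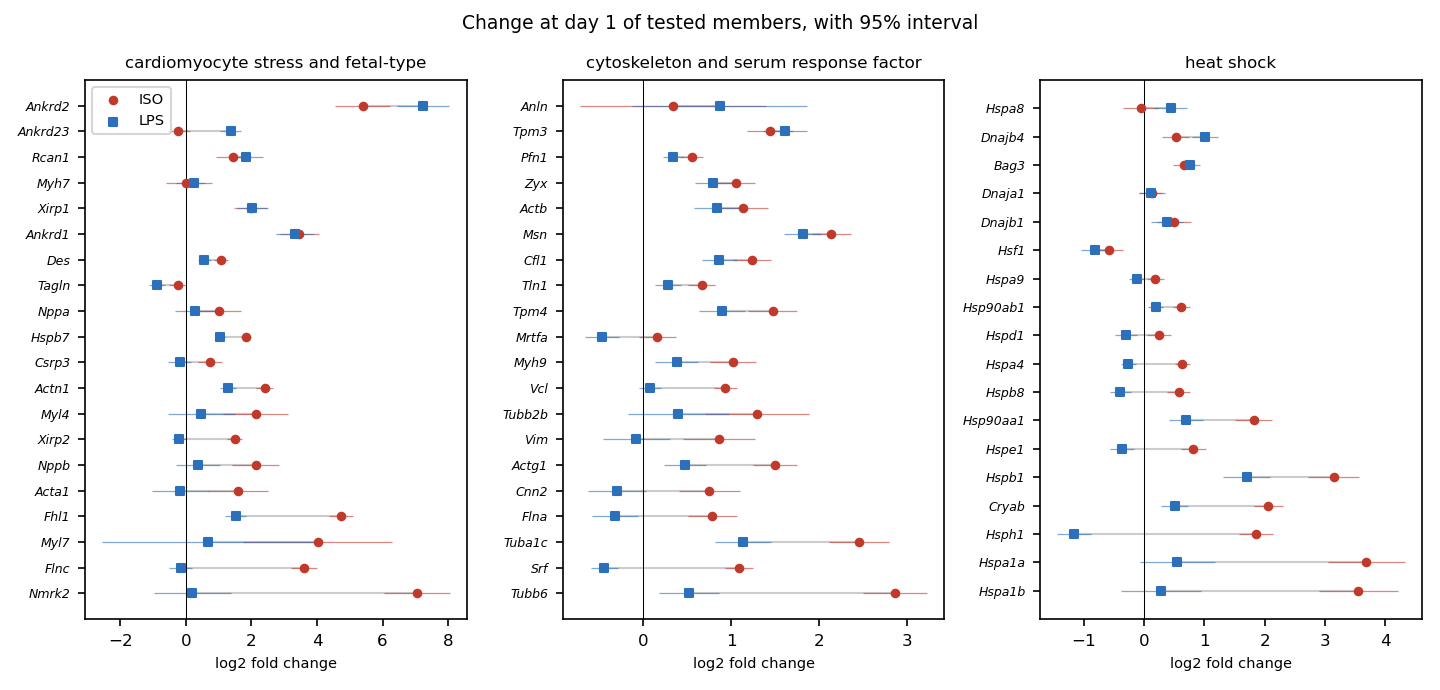
Log2 change at day 1 with ISO (circles) and with LPS (squares) for tested members of 3 lists, not necessarily all of them, with 95% intervals, ordered by the difference. Nmrk2 and Flnc in the left panel, Tubb6 and Srf in the middle panel and Hspa1a and Hsph1 in the right panel show ISO values well to the right of LPS values.

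Among 23 genes of activated fibroblasts, 14 rose and 2 fell with ISO, 5 rose and 8 fell with LPS, and 10 differences were called above 0 and none below. Acta2, smooth muscle actin, rose with ISO alone, from 155 to 465 CPM against 147 and 148 CPM in the LPS arm (difference 1.57, adjusted p = 0.000165). Thbs1, thrombospondin 1, rose 23.1-fold with ISO, and its LPS change of -0.46 was not called (adjusted p = 0.273). Col8a1, a short-chain collagen, fell with LPS (-1.68, adjusted p = 1.47e-05), and its ISO change of 0.39 was not called. Beside these, the summed markers of fibroblasts were lower on day 1 in both arms, at 1076 to 1330 CPM with ISO and 1501 to 1637 CPM with LPS against 2013 to 2114 and 2087 to 2251 CPM at the baselines. Gsn, gelsolin, accounted for most of the fall with LPS: without it the sums were 529 to 595 CPM on ISO day 1 and 821 to 904 CPM on LPS day 1 against 827 to 855 and 839 to 942 CPM, so that the LPS groups overlapped. Summed monocyte and recruited macrophage markers were at 299 to 404 CPM on ISO day 1 and 100.4 to 138 CPM on LPS day 1 against at most 40.7 CPM at baseline, and their part in these values was not tested. Thbs1 is on that list and made up most of the gap, at 157 to 234 CPM on ISO day 1 and 3.85 to 13.1 CPM on LPS day 1, and the other 15 markers summed to 142 to 170.1 and 95.2 to 128 CPM. By gene, 10 of the 16 rose with ISO and 12 with LPS (medians 2.12 and 2.68), and 1 difference, that of Thbs1, was called above 0 and 5 below. With 3 hearts against 4, the exact two-sided permutation test of such a sum cannot give a p below 0.0571, and the smallest adjusted over the 51 comparisons made was 0.0729.

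Genes lowered by ISO alone were led by Tcap, Il15, Phkg1 and Gadd45a. Tcap, telethonin, a cap protein of titin at the Z-disc, was at 1291, 1201, 1351 and 1184 CPM at ISO baseline and 201, 166 and 254 CPM on day 1. In the LPS arm it was at 729, 675, 658 and 634 CPM at baseline and 759, 747, 728 and 807 CPM on day 1. Its untreated hearts did not match between arms, with the ISO baseline the higher by 0.90 on the log2 scale (adjusted p = 3.7e-05). The Tcap fall with ISO was -2.60 (SE 0.13, adjusted p = 1.01e-13) and its LPS change 0.17 (95% interval -0.05 to 0.39), and its difference of -2.77 includes the gap between the baselines. Il15, a cytokine that sustains natural killer and memory T cells, was at 13.7, 14.6, 15.5 and 13.9 CPM at ISO baseline and 3.58, 2.25 and 2.83 CPM on day 1. With LPS, Il15 went from 13.1, 13.5, 12.8 and 12.2 CPM to 13.2, 16.5, 8.61 and 8.75 CPM, where replicates 1 and 2 were above replicates 3 and 4. The Il15 difference was -2.19 (SE 0.26, adjusted p = 7.87e-07).

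Phkg1, the catalytic subunit of muscle phosphorylase kinase, which starts glycogen breakdown, was at 16.5, 23.2, 19.5 and 22.7 CPM at ISO baseline and 5.13, 3.68 and 6.58 CPM on day 1. Its LPS hearts were at 15.5, 15, 16.3 and 16.5 CPM and 15.9, 14.7, 15.8 and 15.4 CPM, and these ranges overlapped. Phkg1 had a difference of -1.97 (SE 0.29, adjusted p = 1.37e-05). Gadd45a, a stress gene under p53, was at 14.9, 13.2, 13 and 13.9 CPM at ISO baseline and 3.54, 4.29 and 2.21 CPM on day 1, and at 11.6, 11.9, 9.44 and 11.3 CPM at LPS baseline and 8.41, 11.7, 9.6 and 8.99 CPM on day 1. All ISO day 1 hearts lay below all others, and its difference was -1.82 (SE 0.20, adjusted p = 2.42e-07). For Il15, Gadd45a and, barely, Phkg1, the untreated hearts of the arms did not overlap, with ISO baseline the higher as for Tcap. Their differences include that gap. Klhl38, Tcta, Sesn1 and Prodh followed with ISO changes of -1.60, -1.55, -1.83 and -1.67 and LPS changes of 0.18, 0.22, -0.06 and 0.07. The LPS values of Sesn1 and Prodh average over the pairs of LPS day 1 hearts. Sesn1 was at 61.9, 60.2, 115 and 112 CPM there against 80.7 to 100.4 CPM at LPS baseline. Prodh was at 14.5, 13.8, 23 and 23.3 CPM against 16.7 to 19.7 CPM. In both genes replicates 1 and 2 lay below the LPS baseline and replicates 3 and 4 above it. Sesn1 restrains mTORC1, and Prodh begins proline breakdown. In the annotation 65.4% of the Klhl38 exon bases and 19.1% of those of Gadd45a are shared with genes on the other strand.

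Catabolism of branched-chain amino acids was lowered more by ISO than by LPS. Of 22 genes, 21 fell and 1 rose with ISO, 12 fell and none rose with LPS, and 19 differences were called below 0 and 1 above. Their median change was -0.94 with ISO and -0.26 with LPS. Acad8, of the valine pathway, and Ivd, of the leucine pathway, fell with ISO alone (ISO changes -1.04 and -1.11, LPS changes -0.08 and -0.12). Dbt, a subunit of the branched-chain ketoacid dehydrogenase, fell under both agents (-1.17 and -0.54, difference -0.63, adjusted p = 0.000546). Of 30 genes of fatty acid oxidation, 13 fell and 9 rose with ISO, 5 fell and 13 rose with LPS, and 11 differences were called below 0 and 1 above. With libraries scaled by their totals alone, 10 in place of 5 of them fell with LPS. Cpt2, which reloads acyl groups onto coenzyme A inside mitochondria, fell with ISO alone, from 205 to 88.4 CPM against 204 and 222 CPM in the LPS arm (difference -1.33, adjusted p = 1e-07). Acadm, the medium-chain dehydrogenase, fell under both and more with ISO (-1.0 and -0.37). The summed cardiomyocyte markers given above were also lower on day 1 in both arms, and their part in these lists was not tested.

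Genes raised by LPS alone were led by Lgals3bp, Il18bp, H2-Q4 and Ddx58. Lgals3bp, a secreted glycoprotein that binds galectins, was at 33, 40.2, 28.8 and 40.0 CPM at ISO baseline and 38.9, 40.4 and 31.9 CPM on ISO day 1. With LPS it went from 28.5, 28.1, 38.1 and 38.4 CPM to 346, 334, 339 and 291 CPM. The ISO arm overlapped throughout, and the LPS day 1 hearts stood far above every other heart. Lgals3bp rose 9.85-fold with LPS (log2 change 3.30, SE 0.20, adjusted p = 2.04e-12), while its ISO change was 0.07 (95% interval -0.36 to 0.49, adjusted p = 0.795). Il18bp, the decoy that neutralises interleukin 18, was at 6.41, 4.46, 4.7 and 6.07 CPM at ISO baseline and 5.18, 5.96 and 5.33 CPM on day 1, and at 5.25, 5.85, 5.57 and 7.2 CPM at LPS baseline and 57.3, 57.2, 48.6 and 56.4 CPM on day 1. Its LPS day 1 replicate 3 was the lowest of that group and still far above the rest. The Il18bp difference was -3.18 (SE 0.19, adjusted p = 1.04e-11).

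H2-Q4, a non-classical class I heavy chain, was at 24.4, 27.2, 30.4 and 26 CPM at ISO baseline and 27.9, 25.7 and 20.9 CPM on day 1, and at 29.7, 29.2, 29.7 and 26.9 CPM at LPS baseline and 238, 201, 196 and 179 CPM on day 1. Its difference was -2.94 (SE 0.19, adjusted p = 4.23e-11), with the caution on near-identical class I genes given above, and 19.1% of its exon bases are shared with Gm11131 on the other strand. Ddx58, which encodes RIG-I, a sensor of viral RNA, was at 10.7, 10.9, 8.67 and 12.3 CPM at ISO baseline and 9.83, 11.7 and 9 CPM on day 1, and at 10.7, 9.63, 13.2 and 11.4 CPM at LPS baseline and 86.3, 84.9, 78.2 and 76.8 CPM on day 1. For both genes the ISO hearts overlapped and the LPS hearts did not. The Ddx58 difference was -2.92 (SE 0.20, adjusted p = 7.55e-11). The next 4 were Mgst1, a membrane glutathione transferase, Nmi and Ifi35, partner proteins induced by interferon, and Xdh, xanthine dehydrogenase. In the annotation 16.8% of the Ifi35 exon bases are shared with Gm11626 on the other strand. The LPS changes of these 4 were 2.83, 2.87, 2.78 and 2.62 and their ISO changes 0.04, 0.10, 0.02 and 0.04. Serping1, the C1 inhibitor, also rose with LPS alone (1.59 against an ISO change of -0.17, 95% interval -0.38 to 0.04).

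Genes lowered by LPS alone were led by Hey1, F13a1, Cacnb2 and Actc1. Hey1, a transcriptional repressor downstream of Notch, was at 7.38, 8.87, 7.74 and 9.19 CPM at ISO baseline and 4.96, 8.54 and 8.54 CPM on day 1. In the LPS arm Hey1 was at 7.93, 9.25, 10.4 and 10.2 CPM at baseline and 0.93, 0.897, 1.24 and 1.13 CPM on day 1. Of the ISO day 1 hearts, replicate 1 lay below its baseline and the other 2 within it. Hey1 fell by 8.92-fold with LPS (-3.16, SE 0.18, adjusted p = 1.1e-12), and its ISO change was -0.17 (95% interval -0.49 to 0.16, adjusted p = 0.364). F13a1, the A subunit of coagulation factor XIII and a marker of resident macrophages, was at 26, 25.2, 21.9 and 26.5 CPM at ISO baseline and 20.4, 25.8 and 21 CPM on day 1, and at 18.6, 20.5, 25.8 and 24.8 CPM at LPS baseline and 2.75, 4.23, 5.26 and 3.83 CPM on day 1. Only the LPS day 1 hearts stood apart among these 15. Its difference was 2.34 (SE 0.27, adjusted p = 3.34e-07).

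Cacnb2, the beta subunit of the cardiac L-type calcium channel, was at 54.2, 59.9, 63.5 and 71.1 CPM at ISO baseline and 68.1, 58.7 and 55.9 CPM on day 1, and at 58.1, 61.1, 68 and 69.5 CPM at LPS baseline and 11.6, 11.4, 13.9 and 20.04 CPM on day 1. LPS lowered it 4.48-fold, and the interval of its ISO change was -0.30 to 0.24. The Cacnb2 difference was 2.13 (SE 0.18, adjusted p = 4.9e-09). Actc1, cardiac alpha-actin, the main actin of the sarcomere, was at 8995, 9315, 7553 and 8931 CPM at ISO baseline and 6367, 6464 and 8622 CPM on day 1, and at 8091, 7825, 7901 and 8279 CPM at LPS baseline and 1579, 1692, 1360 and 1667 CPM on day 1. The LPS day 1 hearts did not overlap any other, while 1 of the 3 ISO day 1 hearts lay within its baseline. Its LPS change was -2.35 (SE 0.13, adjusted p = 4.33e-13), its ISO change -0.28 (adjusted p = 0.0684) and its difference 2.07 (adjusted p = 7.08e-09). Haus8, Slc6a17, 4930402H24Rik and Slc41a3, a magnesium transporter, followed with LPS changes of -1.99, -1.57, -1.40 and -1.54 and ISO changes of -0.17, 0.19, 0.26 and 0.01.

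Among the 2169 genes that moved in the same direction by different amounts, 682 (4.34% of genes tested) rose more with ISO, 478 (3.04%) rose more with LPS, 509 (3.24%) fell more with ISO and 500 (3.18%) fell more with LPS. By size of the difference the first 4 with the larger ISO change were Pak3, Adam8, Fhl1 and Cgref1, all of which rose. Fhl1, a LIM-domain protein of the sarcomere that takes part in hypertrophic signalling, was at 80.4, 84.7, 83 and 84.5 CPM at ISO baseline and 1973, 2385 and 2327 CPM on day 1. With LPS it went from 77.8, 76.8, 84.1 and 79.4 CPM to 280.3, 310.2, 144 and 182 CPM, with replicates 1 and 2 above replicates 3 and 4. Fhl1 rose 26.8-fold and 2.88-fold (difference 3.22, SE 0.22, adjusted p = 9.9e-11). Pak3, a kinase activated by Rac and Cdc42, was at 0.185, 0.097, 0.0741 and 0.38 CPM at ISO baseline and 19.8, 21.4 and 16.5 CPM on day 1, and at 0.217, 0.0382, 0.237 and 0.119 CPM at LPS baseline and 0.67, 1.2, 1.08 and 1.47 CPM on day 1. Neither arm overlapped, and its difference was 3.83 (SE 0.68, adjusted p = 0.000114).

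Adam8, a membrane metalloprotease of leukocytes, was at 0.222, 0.388, 0.222 and 0.152 CPM at ISO baseline and 11.7, 12.4 and 9.91 CPM on day 1, and at 0.217, 0.191, 0.0395 and 0.158 CPM at LPS baseline and 0.67, 0.498, 0.911 and 0.615 CPM on day 1. Its difference was 3.43 (SE 0.77, adjusted p = 0.00109). Cgref1, a secreted calcium-binding protein, was at 0.148, 0.242, 0.593 and 0.455 CPM at ISO baseline and 10.1, 12.9 and 8.91 CPM on day 1, and at 0.652, 0.612, 0.79 and 0.475 CPM at LPS baseline and 2.53, 2.04, 1.61 and 1.95 CPM on day 1. Both genes were above baseline in every treated heart, by more under ISO. The Cgref1 difference was 3.17 (SE 0.42, adjusted p = 3.43e-06). The next 4 were Tmem88b (5.10 with ISO and 1.93 with LPS), Lsmem1, which fell (-5.27 and -2.15), Srxn1, the sulfiredoxin that repairs peroxiredoxins (3.95 and 1.07), and Prg4, lubricin (5.97 and 3.18). Srxn1 belongs to the NRF2 antioxidant list, in which 15 of 20 genes rose with ISO and 14 with LPS, and 7 differences were called above 0 and 2 below. Taldo1, of the pentose phosphate pathway, rose with ISO alone there (1.30 and -0.11). Gdf15, a stress cytokine, rose by 5.86 with ISO and 1.91 with LPS (difference 3.94, adjusted p = 0.0022).

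The first 4 with the larger LPS change were Gbp10, Serpina3f, Serpina3g and Hp, again all raised. Gbp10, a guanylate-binding protein, was at 1.22, 0.776, 0.815 and 0.493 CPM at ISO baseline and 2.54, 1.87 and 3.42 CPM on day 1, and at 0.869, 1.49, 0.632 and 1.42 CPM at LPS baseline and 161, 112, 186 and 174 CPM on day 1. Its difference was -5.53 (SE 0.61, adjusted p = 2.27e-07), and 46.3% of its exon bases are shared with Gm43302 on the same strand. Hp, haptoglobin, the acute-phase binder of haemoglobin, was at 0.259, 0.194, 0 and 0.228 CPM at ISO baseline and 1.16, 1.19 and 1 CPM on day 1, and at 0.0724, 0.153, 0.158 and 0.158 CPM at LPS baseline and 26.6, 18.7, 37.4 and 23.5 CPM on day 1. Both treated groups stood clear of their baselines, and the Hp difference was -4.88 (SE 1.03, adjusted p = 0.000654).

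Serpina3f and Serpina3g are neighbouring serine protease inhibitors of a multigene family, so their reads may be shared. Serpina3f was at 0.0371, 0.0485, 0.037 and 0.152 CPM at ISO baseline and 0.733, 0.613 and 0.666 CPM on day 1, and at 0.0724, 0.191, 0.0395 and 0.237 CPM at LPS baseline and 64.8, 66.7, 21.6 and 26 CPM on day 1, where replicates 1 and 2 were above replicates 3 and 4. Its difference of -5.15 (SE 1.81, adjusted p = 0.0283) was no longer called without ISO baseline replicate 4 (-4.43). Serpina3g was at 0.222, 0, 0.148 and 0 CPM at ISO baseline and 0.302, 0.545 and 0.5 CPM on day 1, and at 0.326, 0.0382, 0.158 and 0 CPM at LPS baseline and 30.5, 16.6, 16.1 and 14.3 CPM on day 1. Its difference of -4.98 (SE 1.36, adjusted p = 0.00577) was no longer called without ISO baseline replicate 1 (-4.16). Lrg1, a leucine-rich acute-phase glycoprotein, rose 4.76-fold with ISO and 52.2-fold with LPS. Of 10 metallothionein and acute-phase genes, all 10 rose with both agents and 5 differences were called, all below 0, among them that of Lcn2, lipocalin 2 (6.28 and 9.15), and of Cp, ceruloplasmin (0.28 and 2.16). In the list of 21 genes of NF-kB feedback and endotoxin sensing, 17 rose with ISO and 18 with LPS, and 9 differences were called below 0 and 3 above. Zc3h12a, an RNase that limits inflammation, had changes of 1.2 and 2.88, while Tlr4, the receptor for LPS, rose more with ISO (1.34 and 0.58, difference 0.77, adjusted p = 0.00454). Summed neutrophil markers were at 17.5 to 28.7 CPM on ISO day 1 and 54.9 to 68.5 CPM on LPS day 1 against at most 3.24 CPM at baseline, and their part in these lists was not tested. Hdc, histidine decarboxylase, made up most of that gap, at 2.62 to 4.43 CPM with ISO and 33.9 to 38.4 CPM with LPS, and the other markers summed to 14.9 to 24.3 and 19.2 to 31.5 CPM, which overlap. Of the 14 tested markers 11 rose with ISO and 14 with LPS, at medians of 5.30 and 5.04 (4.79 with ISO when the 2 markers with a group at 0 reads were set to their bound), and 3 differences were called, all below 0.

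**Figure D5:**
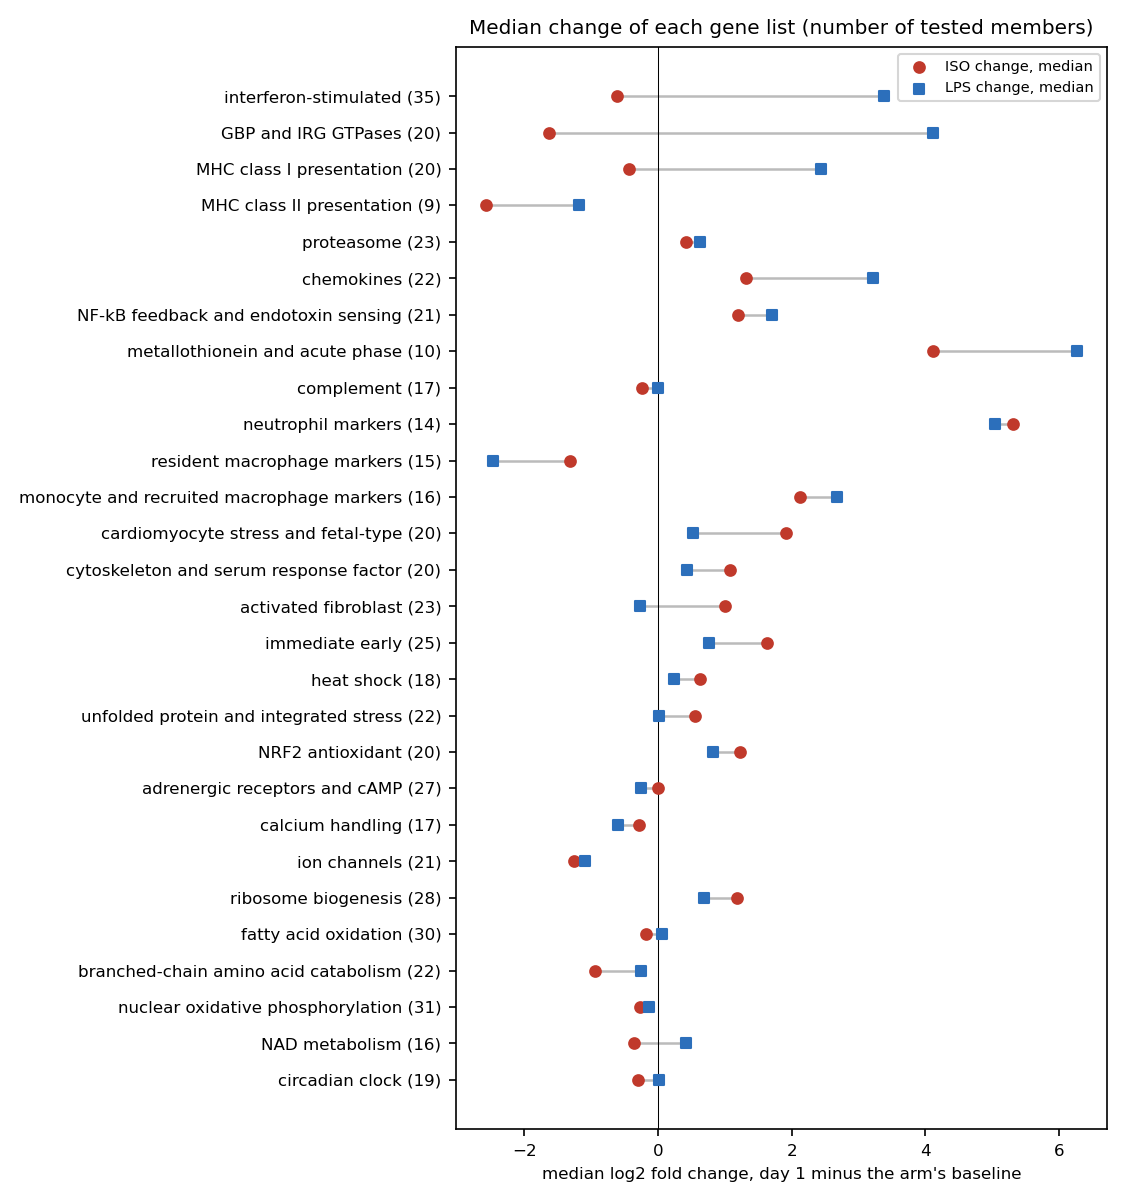
Median log2 change at day 1 of the tested members of 28 gene lists with ISO (circles) and with LPS (squares), with the number of tested members in brackets. Among the 28 lists shown, wide gaps are in the interferon-stimulated, GTPase and MHC class I lists, where the medians lie on opposite sides of 0. The T cell and natural killer list of the text also had medians on opposite sides of 0. They were 1.40 with LPS and -1.99 with ISO, or -0.94 with ISO when members with a group at 0 reads were set to their bound.

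Other large responses had no called difference between agents. Icam1, an adhesion molecule of endothelium, went from 8.36 to 131 CPM with ISO and from 7.77 to 108 CPM with LPS (difference 0.18, 95% interval -0.31 to 0.67). Vcam1 had changes of 2.05 and 1.82 (interval of the difference -0.17 to 0.64), and Socs3, the feedback inhibitor of interleukin 6 signalling, of 3.93 and 3.64 (interval -0.66 to 1.23). Mt2, a metallothionein, had changes of 6.45 and 6.75 (interval -1.46 to 0.87). Ncl, nucleolin of ribosome assembly, rose by 1.17 and 1.05 (interval -0.11 to 0.35), and Kcnip2, a subunit of the transient outward potassium channel, fell by 1.87 and 1.63 (interval -0.60 to 0.11). Most of these intervals reach past 1.5-fold in at least 1 direction, so they bound the difference between agents and do not show that the agents acted alike. They also moved with the LPS day 1 hearts: with replicates 3 and 4 alone Socs3 (1.11) and Ncl (0.30) had a called difference, and with replicates 1 and 2 alone Kcnip2 did (-0.51). With the baselines pooled, Ncl (0.28) and Kcnip2 (-0.36) were called. Of the 21 ion channel genes as a list, 19 fell with ISO and 20 with LPS. In each direction 5 differences were called (19.5% of all genes above 0 and 18.2% below).

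Clock genes need their baselines beside them. Of 19 genes, 8 rose and 9 fell with ISO and 7 rose and 5 fell with LPS. Differences were called above 0 in 4 and below in 7 (19.5% and 18.2% of all genes). Dbp, an output factor of the clock, was at 81.1 ± 17.5 CPM (SD, n = 4) at ISO baseline against 33.9 ± 4.93 CPM (SD, n = 4) at LPS baseline, a difference between untreated groups of 1.26 (adjusted p = 0.00663). Its changes were -2.84 with ISO and -0.94 with LPS, and its difference of -1.90 (adjusted p = 0.000329) shrank to -0.64 with the baselines pooled (adjusted p = 0.214). Tef, a related factor, was opposite (-0.67 and 0.71), and its baselines had a difference of 0.35 (adjusted p = 0.485). The hour at which hearts were taken is not given in the sources used here.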

How the data were processed

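Poly-A RNA of whole hearts was sequenced in 23 libraries, 1 per mouse. The deposited files hold, per the file headers, estimated counts (NumReads) and TPM per gene for each library. Tools named in the submitters' processing notes are bcl2fastq, DRAGEN, edgeR and limma, with the mm10 build. No source used here gives the annotation release or the strand setting. Estimated counts were rounded and fitted with edgeR 4.0.16 (R 4.3.3): filtering by group with a minimum count of 10, TMM scaling, 1 model of 6 group means without covariates, and the quasi-likelihood test with Benjamini-Hochberg adjustment at 0.05. Standard errors are the change divided by the root of its F value. The authors' TPM values served only as an alternative on the log2(TPM + pseudocount) scale, beside DESeq2 1.42.0, limma 3.58.1 and other scalings. The 8 genes of each of 8 classes, up to 4 members of a list (by adjusted p of the difference) and a panel of 58 genes could be named by rule. Ccl9, Gas6, Gsn, H2-Q6, Hspb8 and Hspd1 were named after their values were seen. The classes, the members and all 56 lists were chosen with earlier results of these data known, so list counts are descriptions. Some list members are counted but their values are not reported here. Marker sums were compared by exact two-sided permutation tests. Gene positions and exon overlaps are from GENCODE vM21. On simulated counts for 15732 genes, 67, 67 and 66 genes were changed 1.5-fold, 2-fold and 4-fold in ISO alone. The test of the difference recovered 35.8%, 58.2% and 81.8% of them, with 6 false calls. In the data 5923 differences were called, so these shares, from a setting with few changed genes, need not hold there. Totals of 20910394 to 30368985 reads per library set the precision of low genes.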

Additional observations from a re-analysis of the deposited data

Results flagged for a closer look

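The 5923 genes whose ISO and LPS changes differed are the subject of the report and were called by the test of the difference itself. In the 32 genes shown in every library, 96 groups of 4 hearts were checked for a heart far from the others, and 6 had one, where chance gives about 1 in 20. These were Slc38a1 in LPS baseline replicate 4 (23.6 CPM), Il18bp in LPS day 1 replicate 3 (48.6 CPM), Gm4841 in ISO baseline replicate 1 (3.45 CPM), Serpina3f in ISO baseline replicate 4 (0.152 CPM), Serpina3g in LPS day 1 replicate 1 (30.5 CPM) and Hp in LPS baseline replicate 1 (0.0724 CPM).

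The day 7 hearts enter the day 1 comparison only through the count filter, the scaling and the spread. At LPS day 7, 10 of the 32 genes had a called rise over LPS baseline, where 5.96% of all genes tested had one. The 32 were chosen for their day 1 values. Immunity-related GTPases were still above baseline there: F830016B08Rik at a mean of 50.4 CPM against 8.33 (adjusted p = 1.54e-06), Iigp1 at 59.7 against 24.5 and Gm4841 at 12.9 against 1.04. Other interferon-inducible genes at LPS day 7 were Gbp10 at 4.95 CPM against 1.1, Ifi206 at 1.15 against 0.448, H2-Q4 at 51.6 against 28.9 and Lgals3bp at 57.2 against 33.3. Serpina3g was at 1.13 CPM against 0.131 and Adam8 at 0.628 against 0.152. Tcap was at 1083 CPM at LPS day 7 against 674 at LPS baseline, while its untreated ISO hearts were at 1257 CPM.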

How the results depend on the processing

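Leaving out 1 heart at a time gave 5181 to 6024 called differences, 134 to 179 genes moved by ISO alone, 133 to 161 by LPS alone and 724 to 868 opposite genes. Counts of the classes depend on how they are defined. Genes moved at day 1 by ISO alone numbered 358 and genes moved at day 1 by LPS alone 507 without the bound on the other arm, and 1179 and 966 with any size of change in the moving arm. With 1.5-fold in both arms 232 were opposite. On log2(TPM + 0.1) and log2(TPM + 1) values 538 and 523 genes were opposite (4399 and 4429 differences called), and with pooled baselines 7968 differences were called. A pseudocount shrinks changes of low genes, and the call of Ciita was lost with log2(TPM + 1) (-0.30). Serpina3f was not called with limma-voom (-5.11) or with the 4 groups alone (-5.15). Differences that were not called changed sign as follows. With replicates 1 and 2 alone at LPS day 1, Adrb1 was at -0.30, Ankrd1 at -0.27, Socs3 at -0.25 and Ncl at -0.037. With replicates 3 and 4 alone, Mt2 was at 0.59 and Kcnip2 at 0.075, and with pooled baselines Ankrd1 at -0.065 and Mt2 at 0.080. Leaving out 1 heart at a time, Adrb1 ran from -0.045 (without LPS day 1 replicate 3) to 0.43, Ankrd1 from -0.021 (without LPS day 1 replicate 4) to 0.37, Icam1 from -0.051 (without ISO day 1 replicate 1) to 0.39 and Mt2 from -0.50 to 0.075 (without LPS day 1 replicate 2). The cause was not tested. Replicate numbers did not pair the hearts (correlation of deviations -0.09 to 0.19 over 21 same-numbered pairs, 5 above 0.1), and with the replicate number as a block 5920 differences were called, 146 genes were moved by ISO alone, 147 by LPS alone and 876 opposite. Depth limits genes with few reads: fold changes against a group near 0 reads rest on counts and not on the fitted values.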

Other observations

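Of 20 sarcomere genes tested, 13 fell with ISO and 13 with LPS, and 5 differences were called above 0 and 4 below, shares near those of all genes (19.5% above and 18.2% below). The 4 became 9 with LPS day 1 replicates 1 and 2 alone and 8 with the baselines pooled. Actn2, the Z-disc crosslinker alpha-actinin 2, rose with ISO (0.69, adjusted p = 1.76e-08) and had an LPS change of -0.06 that was not called (adjusted p = 0.474). Ldb3, another Z-disc protein, was opposite (0.35 and -0.38). Ribosome biogenesis genes rose with both agents, 27 of 28 with ISO and 25 with LPS, and 13 differences were called above 0 and 1 below. That 13 depended on the LPS day 1 hearts: it was 23 with replicates 3 and 4 alone and 8 with replicates 1 and 2 alone, and 21 with the baselines pooled. Rrp12, of ribosome assembly and export, rose by 2.70 and 1.93, and Gnl3, nucleostemin, by 2.21 and 1.22. The vessel growth factor Vegfa fell with both agents and more with LPS (-0.81 and -1.55, difference 0.74, adjusted p = 0.000176). Of 19 genes that respond to glucocorticoids, 12 rose with ISO and 17 with LPS, and 1 difference was called above 0 and 6 below (10 below with the baselines pooled). Pericyte and smooth muscle markers fell in 8 of 16 cases with ISO and 12 with LPS, with 9 differences called above 0 and 1 below.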
